A study of Mus musculus with 11 samples.

Results

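Among the H3K4me3 regions of mammary tissue from mice at day 6 of pregnancy, 1343 lay more than 100 kb from any other region of their chromosome and were of ordinary width. They were chosen from the authors' list of 14738 regions by width, above the minimum of 501 bp and up to 2000 bp, and by a gap above 100000 bp, edge to edge, to every other listed region, on chromosomes 1 to 19. They made up 9.11% of the list, 9.39% of the 14296 autosomal regions and 13.5% of the 9971 autosomal regions of that width. The other 8628 autosomal regions of that width, each with a neighbour within 100 kb, are what they are set against.

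The tissue was whole mammary gland of wild-type mice of the mixed background 129SV::FVB/N::C57BL/6. H3K4me3 ChIP-seq and STAT5A ChIP-seq were each run on 1 library of this stage, so a second H3K4me3 or STAT5A sample of day 6 was not analysed here, and no value below has a replicate check or a p-value. Intervals cover counting error only. Whether both chromatin preparations came from the same animals, or from pooled animals, is not stated in the labels. The other 9 samples of the series, including all input libraries, day 13, parturition and the RNA-seq, were not used. Sequencing depth is unknown for both libraries. Whole tissue mixes epithelium, fat, stroma and blood vessels, and a region present in few cells cannot be told apart from a weakly marked region present in many.

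H3K4me3, trimethylation of lysine 4 of histone H3, is laid down by SET1 and MLL enzyme complexes and is found at the start sites of transcribed genes, above all at CpG-rich promoters. STAT5A is the transcription factor that prolactin and growth hormone activate through the kinase JAK2, and in the mammary gland it drives alveolar development and milk protein genes from promoters as well as distant enhancers. Genes lie unevenly along mouse chromosomes, and a promoter in a gene-poor stretch can be far from the next. Regions were not assigned to genes here, since no genome sequence or gene annotation of the files' build, mm9, was used, and for the same reason no sequence is printed. Coordinates are in mm9 and count from 1.

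The isolated regions were much like their neighboured counterparts in width, with somewhat lower scores. Their widths ran from 626 to 1999 bp with 1283 bp at the median and 973 and 1597 bp at the quartiles, against 1244 bp, 925 bp and 1557 bp in the other regions. The H3K4me3 score, the authors' own value on a scale that is not named, had a median of 186.1 in isolated regions, with quartiles of 95 and 286.1, and a median of 201.4 in the others, with quartiles of 101.2 and 305.3. Because the rule used width and gap and the score comes from the same library, these values describe the regions and are not tested.

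At a given width, the isolated regions also had the lower median score in each of 6 width classes. Up to 750 bp the medians were 45.7 for isolated and 47.0 for other regions, and from 1 to 1.25 kb they were 164 and 190.0. From 1.75 to 2 kb they were 308 and 354. Score went with width among the isolated regions (Spearman's rho 0.66 across 1343 regions) and among the others (rho 0.73 across 8628 regions). Regions of 1 library share its depth and are not independent replicates.

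**Figure D1:**
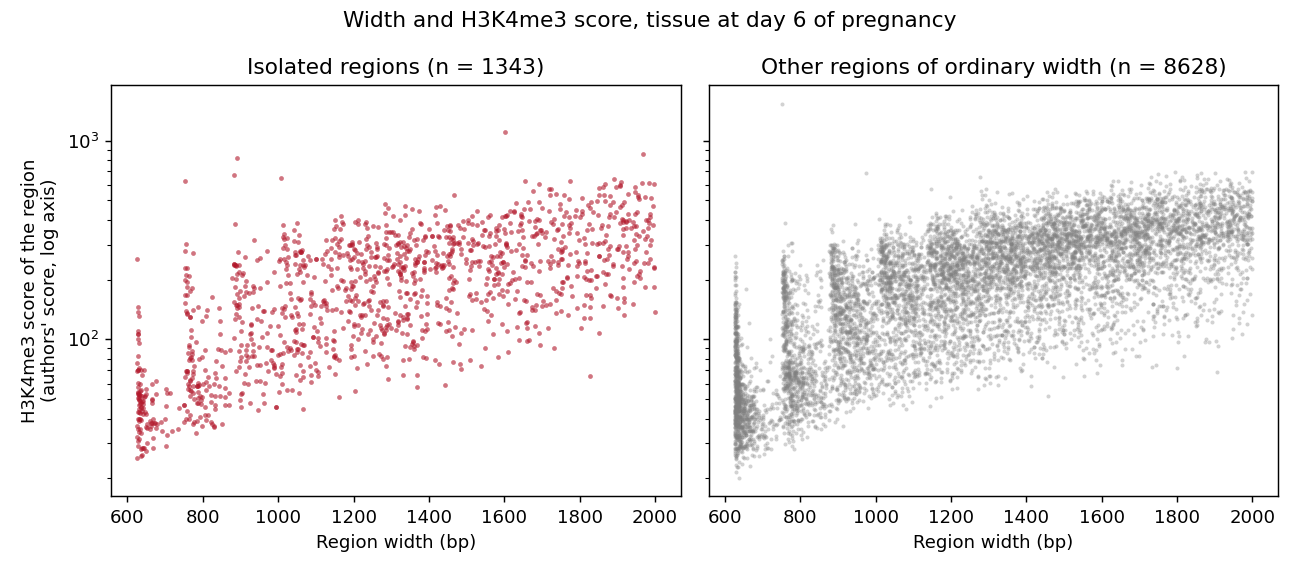
Each point is 1 autosomal H3K4me3 region, with its width in bp on the horizontal axis and the authors' score on a log vertical axis, isolated regions at left and the other regions of ordinary width at right. Scores rise with width in both sets, and widths pile up just above 626 bp and again 125 bp higher. A few narrow regions of both sets stand far above the rest of their width. The highest score, 1533.1 at a width of 752 bp, is that of an other region.

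Widths were not spread evenly at the narrow end. The narrowest width after the minimum of 501 bp was 626 bp, so the lower limit of the rule fell in a range of widths that the list does not use. From 626 to 635 bp there were 50 isolated and 454 other regions. At the next step, 125 bp wider, there were 24 isolated and 161 other regions in a span of 10 bp, against 3 and 8 in the 10 bp just below. The step had faded by 1376 bp, where 10 isolated regions fell on it and 11 just below it.

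The upper width limit and the gap limit of the rule fell in the middle of continuous ranges. Just inside the upper width limit were isolated regions of 1999 and 1997 bp on chromosomes 4 and 1, with scores of 138.1 and 602.8, and just outside it were regions of 2002 bp on chromosomes 2 and 6, with scores of 309.4 and 166.7. The smallest gaps inside the rule were 100.03, 100.08 and 100.09 kb, on chromosomes 10, 16 and 5. The largest gaps outside it were 99.99, 99.91 and 99.82 kb, on chromosomes 8, 5 and 16.

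Isolation was mostly moderate, with a long tail. The gap to the nearest region was 161 kb at the median, 123 and 272 kb at the quartiles and 4276 kb at the highest, whereas among the other regions its median was 20.1 kb. For the 1331 isolated regions with a neighbour on each side, the farther gap had a median of 431 kb and was 1.97 times the nearer one at the median. Only 523 had more than 200 kb free on each side, 136 had more than 500 kb and 33 more than 1 Mb. The remaining 12 were the first or last region of their chromosome and had 1 neighbour only.

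**Figure D2:**
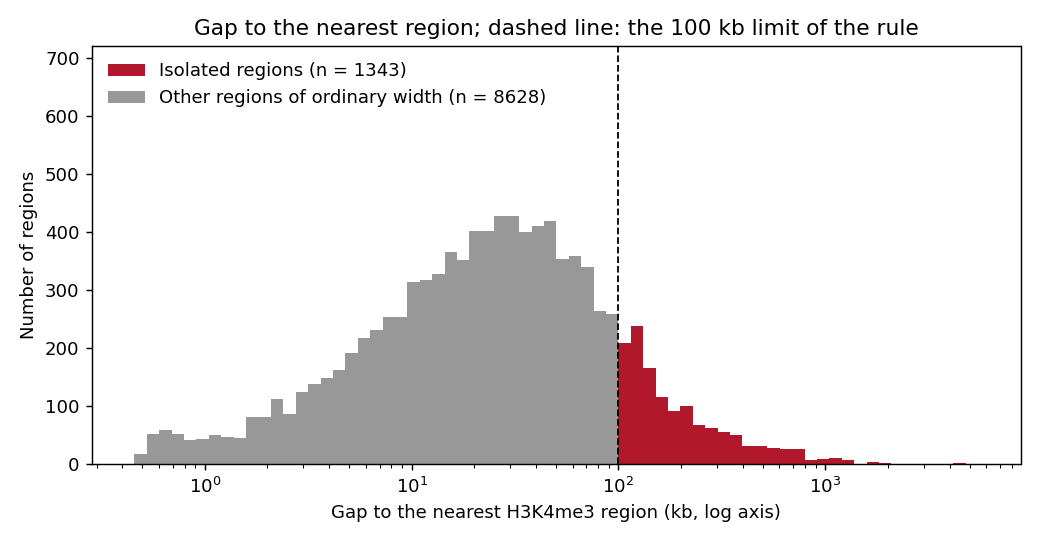
The histogram counts autosomal regions of ordinary width by the gap to their nearest H3K4me3 region in kb, on a log axis with bins of equal log width, isolated regions in red and the others in grey. The dashed line at 100 kb is the limit of the rule, and the isolated regions are the upper tail of 1 continuous distribution that reaches 4276 kb.

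The most remote region stood on chromosome 14 from 94289450 to 94290534, with 5418 kb free on one side and 4276 kb on the other. It was 1085 bp wide and its score of 73.5 was below the lower quartile of isolated regions, and the nearest STAT5A peak was 3149.9 kb away. The next, on chromosome 1 from 113760643 to 113761861, had 4273 kb and 6445 kb free, a score of 267.4 and a STAT5A peak at 169 kb. The region on chromosome 2 from 97306543 to 97308273 had 3028 kb and 4160 kb free and a score of 90.9.

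Chromosome 16 held 3 of these 10, starting at 70313954, 72663249 and 81200668, with scores of 280.9, 177.6 and 47.8, and the first and second of them were each other's neighbours across 2348 kb. The other 4 were on chromosomes 14, 7, 17 and 10, with nearest gaps from 1639.7 to 2026 kb. Among these was the region with the highest score of the 10, 492.9, on chromosome 10 from 50311748 to 50313664. A large gap therefore did not go with a uniformly low score, and across all isolated regions gap and score were almost unrelated (rho -0.10 across 1343 regions). None of the 10 held a STAT5A peak, where 9.53% of all isolated regions and 7.35% of those with a gap above 500 kb did, against a background of 12.0% of all autosomal H3K4me3 regions, and nothing is read from a count of 0 among so few.

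Isolated regions often followed one another. Of the 1343, 704 (52.4%) stood directly beside another of them on the chromosome, in 275 runs, and 639 stood between regions of other kinds. The longest run held 8 isolated regions within 2.48 Mb of chromosome 5, between 96803101 and 99284489, with 112 to 918 kb between neighbours. Their scores ran from 26.0 to 399.2. The nearest region of an isolated region was itself isolated in 416 cases (31.0%), of ordinary width with a nearer neighbour in 465 (34.6%), over 2000 bp wide in 311 (23.2%) and of minimum width in 151 (11.2%). Of all autosomal regions, these kinds made up 9.39%, 60.4%, 19.4% and 10.8%, in the same order. A neighbour of an isolated region is by construction free on that side, so these shares are a description of the rule as well as of the genome.

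Chromosomes differed in how many of their regions were isolated. Chromosome 1 had the highest share, 124 of 832 regions (14.9%, exact 95% interval 12.6 to 17.5), and chromosome 18 the next, 57 of 411 (13.9%, interval 10.7 to 17.6). Chromosome 11 had the lowest, 56 of 1235 (4.53%, interval 3.44 to 5.85), and chromosome 17 the next, 39 of 713 (5.47%, interval 3.92 to 7.40). Chromosome 11 was also the most densely marked, with 101.5 regions of any width per 10 Mb, against 42.2 on chromosome 1.

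A chromosome with more regions per length leaves less room between them, so a lower isolated share there can follow from the rule. Across the 19 chromosomes, regions per 10 Mb and isolated share went in opposite directions (rho -0.77). Density did not fix the share, since chromosome 12, with 43.1 regions per 10 Mb, had 9.42% isolated. Chromosome 1, with 42.2, had 14.9%. How much of the differences follows from the rule was not tested. Counted per length, the chromosomes were more alike, from 4.06 isolated regions per 10 Mb on chromosome 12 to 6.54 on chromosome 10, with 5.44 over all autosomes. Median widths of the isolated regions ran from 1157 bp on chromosome 10 to 1363 bp on chromosome 13, median scores from 147.2 on chromosome 10 to 235 on chromosome 19, and median nearest gaps from 143 kb on chromosome 9 to 215 kb on chromosome 18.

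**Figure D3:**
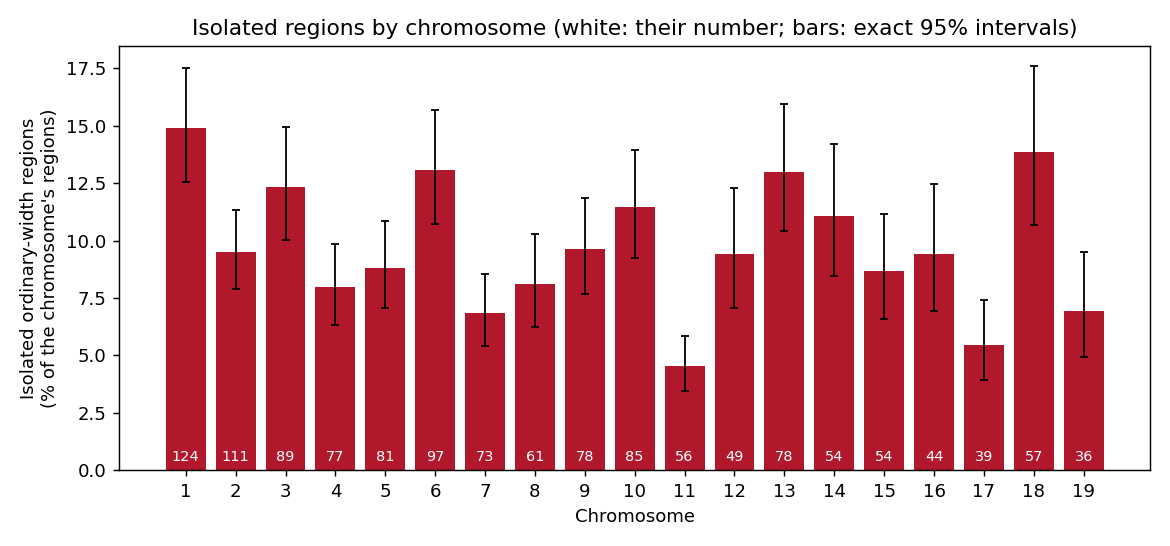
Bars give the isolated regions of ordinary width as a percentage of all H3K4me3 regions of each chromosome, with exact 95% intervals and the number of isolated regions in white. The share is highest on chromosome 1, at 14.9%, and lowest on chromosome 11, at 4.53%.

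Roughly 1 isolated region in 10 carried a STAT5A peak, slightly below the share of the other regions of ordinary width. A peak, called by the authors from the STAT5A library at a fixed width of 215 bp, shared at least 1 bp with 128 of the 1343 isolated regions (9.53%, exact 95% interval 8.01 to 11.2), against 973 of the 8628 others (11.3%, interval 10.6 to 12.0). The background was 12.0% of all autosomal H3K4me3 regions and 11.0% of those of ordinary width. The difference of -1.75 percentage points had an interval from -3.36 to 0.06 (Newcombe), which includes 0. It lies close to that limit: under 13 other settings the interval was wholly below 0 in 8 and included 0 in 5, and in 2 of those 5, with only STAT5A peaks at or above the median score or the upper quartile, the difference was positive, at 0.42 and 0.51 points. These settings recount overlapping sets of regions and are not independent. With the others weighted to the width classes of the isolated regions the difference was -2.03 points, and to their score classes -1.35 points, both without an interval. A second peak lay on 2 of the isolated regions and on 23 of the others.

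The share with a STAT5A peak climbed with region width. Of isolated regions up to 750 bp wide, 3 of 115 held a peak (2.61%, interval 0.54 to 7.43), and of those from 1.75 to 2 kb, 32 of 202 did (15.8%, interval 11.1 to 21.6). The other regions had 5.53% and 15.1% in the same classes, so the climb was not particular to isolated regions. These shares are per region and not per base. Isolated regions of the minimum width held a peak in 5 of 230 cases (2.17%, interval 0.71 to 5.00), and isolated regions over 2000 bp in 100 of 549 (18.2%, interval 15.1 to 21.7). Within the width classes the isolated share was below that of the other regions in 5 of 6, and the interval of the difference excluded 0 in 1 of them. That class, from 1.5 to 1.75 kb, had 10.3% of 223 isolated and 16.1% of 1469 other regions with a peak, a difference of -5.82 points (interval -9.70 to -0.80), not adjusted for the 6 classes looked at.

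**Figure D4:**
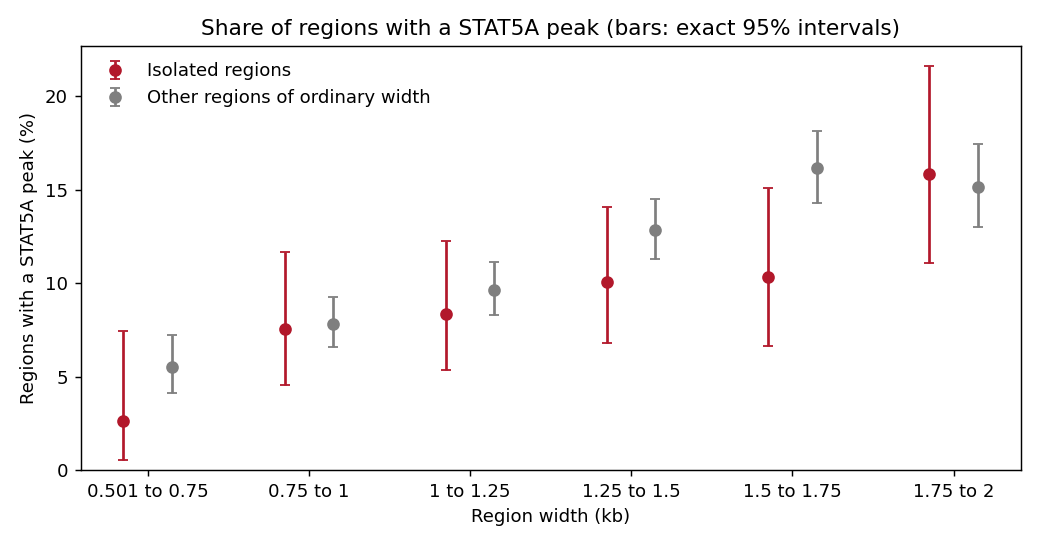
Points give the percentage of regions with a STAT5A peak in 6 classes of region width in kb, isolated regions in red and the other regions of ordinary width in grey, with exact 95% intervals. The share climbs with width in the isolated regions, reaching 15.8% in the widest class, and the intervals of both sets overlap in each class.

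The H3K4me3 score went the same way. Among isolated regions in the lowest of 4 equal score classes of ordinary-width regions, up to 100.5, 14 of 356 held a STAT5A peak (3.93%), against 57 of 290 in the highest class, above 302.9 (19.7%, interval 15.2 to 24.7). The other regions had 5.31% and 18.2% in the same classes, and the interval of the difference included 0 in each of the 4 classes. The 128 isolated regions with a peak had a median H3K4me3 score of 291.8 and a median width of 1423 bp, against 174.2 and 1270 bp in the 1215 without one.

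The share with a STAT5A peak was lower among the more remote of the isolated regions. With a nearest gap of 100 to 125 kb, 38 of 354 isolated regions held a peak (10.7%, interval 7.71 to 14.4), with 125 to 150 kb 32 of 243 (13.2%, interval 9.18 to 18.1) and with 150 to 200 kb 21 of 223 (9.42%, interval 5.92 to 14.0). With 200 to 300 kb 15 of 225 did (6.67%, interval 3.78 to 10.8), with 300 to 500 kb 12 of 162 (7.41%, interval 3.89 to 12.6), and with more than 500 kb 10 of 136 (7.35%, interval 3.58 to 13.1). The share was 9.24% in other regions with a gap of 50 to 100 kb, so across both sets it did not fall steadily. Median H3K4me3 scores were 207.25, 202.5 and 189 in the classes up to 200 kb, and 153.4, 176 and 166.65 above it. Whether score accounts for the lower share was not tested. Pooled after these values were seen, at the alternative gap limit of 200 kb, 37 of 523 regions above it held a peak (7.07%, interval 5.03 to 9.62), against 91 of 820 from 100 to 200 kb (11.1%, interval 9.03 to 13.4), a difference of -4.02 points (Newcombe interval -7.03 to -0.82). The share of isolated regions with a peak was lowest on chromosome 14, at 3 of 54 (5.56%), and highest on chromosome 15, at 9 of 54 (16.7%), counts too small to order the chromosomes.

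Over all listed peaks, STAT5A was sparser both on isolated regions and around them, and the difference was larger around them. On the regions themselves there were 70.2 peak centres per Mb (interval 58.2 to 83.9) in isolated regions and 86.5 per Mb (interval 81.0 to 92.2) in the others, a ratio of 0.81 (interval 0.67 to 0.98). This ratio takes no account of the lower H3K4me3 scores of isolated regions and was not recomputed under other settings. With only STAT5A peaks at or above the median score, 4.47% of isolated and 4.04% of other regions held one. At or above the upper quartile 1.94% and 1.43% did, and both differences had an interval including 0. With all peaks, the intervals of both sets overlapped within each H3K4me3 score class for the share of regions with a peak. From 10 to 100 kb away there were 3.19 per Mb around isolated regions (740 over 232 Mb) and 5.64 per Mb around the others (2998 over 531 Mb), a ratio of 0.57 (exact 95% interval 0.52 to 0.61). Here each base and each peak is counted a single time per set, by its distance to the nearest region of that set, and a peak near a region of both sets counts in both. The flanks of the other regions contain further H3K4me3 regions, which carry peaks of their own, while those of isolated regions contain none by construction. With all H3K4me3 regions masked with 1 kb to either side, the densities were 3.19 per Mb (interval 2.97 to 3.43) around isolated regions and 4.86 per Mb (interval 4.67 to 5.05) around the others, and the ratio was 0.66 (interval 0.60 to 0.71).

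The contrast between a region and its surroundings was steep in both sets. The STAT5A density on isolated regions was 22.0 times that of their masked flanks (interval 18.0 to 26.7), and on the other regions it was 17.8 times (interval 16.5 to 19.2). Around isolated regions the density was 11.6 per Mb within 1 kb of the edge (interval 7.86 to 16.4), 4.29 from 1 to 5 kb and 4.48 from 5 to 10 kb, then 3.41 from 10 to 25 kb, 3.06 from 25 to 50 kb and 3.19 from 50 to 100 kb. Relative to the whole span from 10 to 100 kb, the density was 3.63 times as high within 1 kb (interval 2.45 to 5.19), 1.35 times from 1 to 5 kb (interval 0.98 to 1.81) and 1.40 times from 5 to 10 kb (interval 1.06 to 1.83). Around the other regions it stood at 13.4 per Mb within 1 kb, 6.51 from 1 to 5 kb and 5.13 from 50 to 100 kb.

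**Figure D5:**
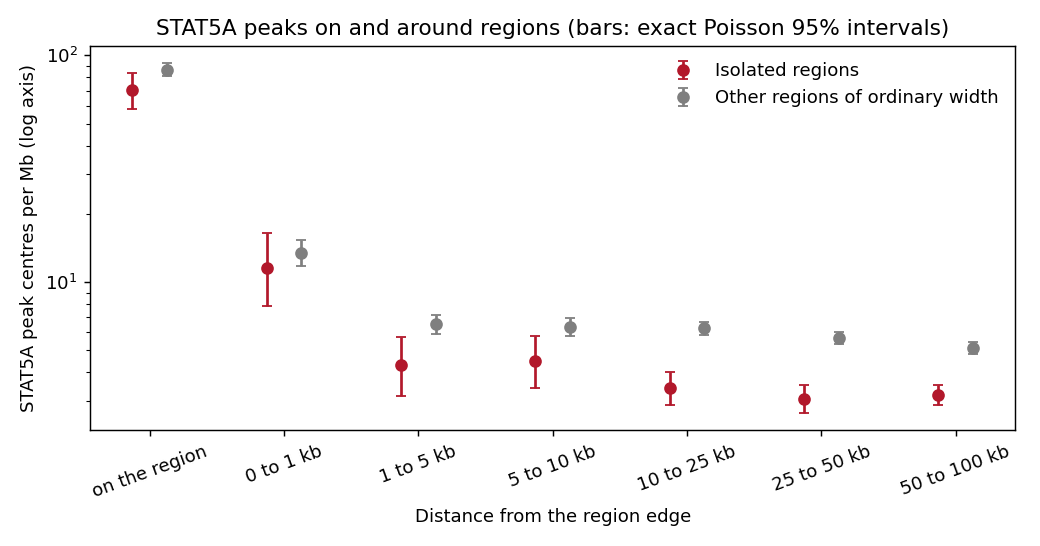
Points give STAT5A peak centres per Mb, on a log axis, on the region and in 6 classes of distance from its edge, for isolated regions in red and the other regions of ordinary width in grey, with exact Poisson 95% intervals, each base counted a single time per set and the flanks not masked. Both sets are highest on the region, at 70.2 and 86.5 per Mb, and part from 1 kb outward, where the isolated regions lie at 3.06 to 4.48 per Mb and the others at 5.13 to 6.51.

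Most isolated regions were far from STAT5A. The nearest peak was 127 kb from the edge of isolated regions at the median, with quartiles of 29.7 and 277 kb, against 44.0 kb in the others, with quartiles of 12.0 and 111 kb. Within 10 kb a peak was found for 16.2% of isolated regions (interval 14.3 to 18.3) and 23.0% of the others (interval 22.2 to 23.9), and within 100 kb for 43.7% (interval 41.0 to 46.4) and 72.3% (interval 71.3 to 73.2). No peak lay within 1 Mb of 63 isolated regions and of 66 others. Counting peaks within 100 kb, 756 isolated regions (56.3%) had 0, 346 had 1, 148 had 2, 54 had 3 and 39 (2.90%) had 4 or more. Among the other regions 27.7% had 0 and 12.9% had 4 or more. By the rule the others have a further H3K4me3 region within 100 kb, which can carry a peak, and isolated regions have none. Part of these contrasts can therefore follow from the rule, and the distances and counts were not recomputed with H3K4me3 regions masked.

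The 130 peaks on isolated regions had a median score slightly below that of the STAT5A list and slightly above that of the peaks on the other regions. Their scores, again the authors' own values, had a median of 5.7, with 4.6 and 7.45 at the quartiles and 20.7 at the top. The 996 peaks on the other regions had a median of 5.4, with 4.8 and 6.7 at the quartiles. The peaks lying 10 to 100 kb from an isolated region had a median of 6.4, and all 8735 autosomal peaks one of 6.0 and a highest score of 111.4. In the upper 10% of autosomal scores, from 11.1 up, were 9 of the peaks on isolated regions (6.92%) and 33 of those on the others (3.31%). Those on isolated regions include the peaks with scores of 20.7, 15.9, 15.8 and 13.5. These lie on regions of chromosomes 8 and 1 with H3K4me3 scores above 500 per kb, described below. No STAT5A peak lay on the other regions of ordinary width above 500 per kb, so such regions enter the isolated share only. The shares without such regions were not computed, and neither share has an interval here. No difference is therefore read from these 2 shares. Of 121 peak centres inside an isolated region, 63 fell in the inner 50% of its width (52.1%, interval 42.8 to 61.2), and of 933 inside the other regions 539 did (57.8%, interval 54.5 to 61.0).

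The highest STAT5A score on an isolated region, 20.7, belonged to a peak on chromosome 8 from 20020315 to 20020529, near the middle of a region 1008 bp wide with an H3K4me3 score of 644.8. The next scores, 20.1 and 18.0, were on regions with weak H3K4me3. One was on chromosome 16 from 88561962 to 88563514, with an H3K4me3 score of 138.9 and 861 kb free on its nearer side, and the other on chromosome 4 from 63707745 to 63708375, with an H3K4me3 score of 49.8 and 487 kb free. In both the peak centre fell just outside the region's edge.

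The region from 78816648 to 78817717 on chromosome 17, whose H3K4me3 score was 238.0, carried a peak of score 13.0. In that from 6168491 to 6169259 on chromosome 9 the H3K4me3 score was 54.8 and the STAT5A score 11.9. The rest of the 10 regions with the highest STAT5A scores included regions on chromosomes 16, 1 and 10, with STAT5A scores of 11.3, 11.0 and 10.7 and H3K4me3 scores of 133.4, 374.8 and 240.4. Of the 10, 3 were also among the 10 isolated regions with the highest H3K4me3 scores, on chromosomes 1 and 8.

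A handful of isolated regions stood out in both libraries. The highest H3K4me3 score, 1100.1, was that of the region on chromosome 1 from 90173250 to 90174850. It held 2 STAT5A peaks, with scores of 15.9 and 13.5, and had 23 peak centres on it or within 100 kb. Next came 854.0 on chromosome 2 from 129625920 to 129627887, 1968 bp wide and with the nearest peak 167 kb away. Then came 3 successive regions on chromosome 8, from 19784563 to 19785454, from 19892434 to 19893315 and from 20019849 to 20020856, with scores of 813.5, 672.3 and 644.8 on widths of only 892, 882 and 1008 bp. These 3 had 10, 23 and 21 STAT5A peak centres on them or within 100 kb.

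No other isolated region had more than 7 such peaks. Per kb of width, the chromosome 8 regions scored 912, 762 and 639.7, that on chromosome 1 scored 687, and a region at the far end of chromosome 1, from 197067678 to 197068430, scored 835 with no STAT5A peak within 1 Mb. The median of isolated regions was 140.4 per kb and the 90th percentile 264, and these 5 were the only ones above 500, a limit chosen after their values were seen. Among the other regions of ordinary width 4 were above 500 per kb, with 0 to 9 peak centres within 100 kb. The highest of these, on chromosome 19 from 61275451 to 61276202, scored 2038.7 per kb, above any isolated region. No input library was used here to set these scores against, and whether copy number or repeated sequence enters the scores of both libraries at these regions was not tested. Without the 5 regions and the 4 others, 9.34% of isolated regions held a STAT5A peak, and the difference from the others was -1.94 points (interval -3.54 to -0.14), which then excluded 0.

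The other regions among the 10 highest H3K4me3 scores had the widths usual for such scores, from 1655 to 1909 bp. They lay on chromosome 7 from 66483529 to 66485419, scored 639.4 and with 569 kb free on its nearer side, on chromosome 1 from 59029550 to 59031204, with 623.3, and on chromosome 3 from 132754106 to 132755880 and from 132346066 to 132347974, with 622.5 and 619.4. The last of these held a STAT5A peak of score 4.6, and the nearest peaks of the others were 522, 21.1 and 16.0 kb away. At the other end, the lowest score of an isolated region was 25.2, on chromosome 1 from 3661035 to 3661660, the first region of that chromosome.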

How the data were processed

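Mammary tissue at day 6 of pregnancy was crosslinked, its chromatin sonicated to 200 to 300 bp and precipitated with antibodies against H3K4me3 or STAT5A, per the labels' protocols. CASAVA, Bowtie, HOMER and the build mm9 are named in the submitters' processing notes, without versions or peak settings. The deposited lists, called on single samples, give positions and the authors' score, whose scale is not named, so scores only describe and rank regions within a list.

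Gaps, overlaps (at least 1 bp) and densities of peak centres were computed in Python 3.11.15 with numpy 2.4.6, pandas 2.3.3, scipy 1.17.1 and statsmodels 0.14.6, and checked on simulated intervals. Shares have exact (Clopper-Pearson) 95% intervals, densities exact Poisson intervals and differences Newcombe intervals. Named are the 10 isolated regions each with the highest H3K4me3 score, the largest gap and the highest STAT5A score. The regions and comparisons were chosen with earlier results of these data known. The RNA-seq table of parturition has no coordinates and was not used.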

Additional observations from a re-analysis of the deposited data

How the results depend on the processing

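Of 71 values recomputed under other settings, 43 stayed within the counting interval of the reported value, or within 1.5 times it for a count of regions. No paired analysis was possible because each group had 1 library, and for the same reason no replicate could be left out. The difference in STAT5A share between isolated and other regions turned positive with only STAT5A peaks at or above the median score (0.42 points, 4.47% of isolated regions) or the upper quartile (0.51 points, 1.94%), each with an interval including 0, and was -4.19 points (7.07%) with a gap limit of 200 kb. With widths up to 1500 bp 7.95% of isolated regions held a peak. Gap limits of 50 and 200 kb left 2923 and 523 regions, with median distances to STAT5A of 90.6 and 207 kb, ratios of flanking STAT5A density (isolated over other) of 0.72 and 0.40, and, at 50 kb, 16.2 times the flanking density on the region. Median distances were 144 kb up to 1500 bp, 111 kb up to 3000 bp, 108 kb without the lowest 25% of scores, and 224 and 459 kb with the STAT5A score limits. The density ratio was 0.41 up to 1500 bp, 0.71 up to 3000 bp, 0.62 without the lowest 25% of scores, 0.63 and 0.67 with the STAT5A score limits, 0.66 with masked flanks, 0.62 with masked flanks and without regions above 500 per kb, and 0.42 with the flanks of each region counted separately, where a peak near several regions counts several times. The density on the region was 14.0 times that of the flanks with STAT5A peaks of the upper quartile. The settings on score per kb, masking and separate flanks, and all those of the density ratios, were chosen after seeing the data. The causes were not tested. Depth is unknown for both libraries, so a region without a STAT5A peak is one where none was called.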
